A study of Homo sapiens with 8 samples.

Results

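The proteasome is the protease complex that degrades proteins marked with ubiquitin. Its barrel-shaped 20S core is built of alpha subunits (PSMA genes), which form the outer rings and gate the entrance, and beta subunits (PSMB genes), which form the inner rings and carry the active sites. The 19S particle on the ends of the core recognises, unfolds and feeds in the substrate with its ATPases (PSMC genes) and non-ATPase subunits (PSMD genes). The PSME genes encode alternative activators of the core, PSMF1 encodes an inhibitor, and the PSMG genes encode chaperones that guide assembly of the core. In blood cells, and after interferon in many others, PSMB8, PSMB9 and PSMB10 replace the standard catalytic subunits PSMB5, PSMB6 and PSMB7 to form the immunoproteasome, which is known for producing peptides for display on MHC class I. The members described here are all genes of the deposited table whose symbol is PSM, a letter from A to G and a number. They were 46 of 11530 genes. Of the proteasome symbols listed for this work, PSMA8 and PSMB11, which are known from testis and thymus, had no row in the table.

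RNA was sequenced from MonoMac 6, an established line derived from a human acute monocytic leukaemia. For 4 libraries the cells were kept for 24 h in serum-free RPMI with human APRIL at 100 ng/mL, a TNF family cytokine encoded by TNFSF13, and 4 control libraries came from cells without it. The line was maintained in RPMI to which 10% serum from fetal calves, penicillin and streptomycin were added, and the series text gives both groups unnamed baseline cytokines. Whether the control cells were also kept without serum is not stated, so APRIL and a change of serum cannot be told apart. Everything comes from 1 cell line, and the labels do not say whether the libraries of a group were separate cultures, so the tests measure the spread between libraries, which may be technical. In a bulk library, less RNA per cell and fewer cells of a kind cannot be told apart. The table headers give each library's group and no number, so libraries are called columns 1 to 4 in table order.

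The values are log2 levels scaled by the authors, and a difference is APRIL minus control on that scale. Levels are not compared between genes, because the values carry a divisor per gene of unknown origin. Whole reads were recovered from the values for 11155 genes. Over these genes APRIL columns 1 to 4 held 2873608, 5377080, 946573 and 3203484 reads, and the control libraries held 1390403 to 2986435. APRIL column 3 was thus the shallowest library, and it also had the lowest TMM factor, 0.875 against 1 to 1.03 in the other 7 libraries. Among the 42 members with recovered reads the counts per library ran from 17 to 3782, with a median of 204.5 in APRIL column 3 and 943.5 in APRIL column 2. Of 20 markers listed for monocytic leukaemia cells 18 were in the table, among them LYZ, CD14 and MPO. Their median difference was +0.18. Of 8 T and NK cell markers the table held 1 (NKG7), of 7 B and plasma cell markers it held 4, and of 6 erythroid and platelet markers and 6 markers of fibroblasts, epithelium and endothelium it held none.

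Upstream sequences were looked up for the members on which the results below turn: PSMD6, PSMD9 and PSMG4, which did not overlap between the groups, and PSMB9 and PSMB3, the immunoproteasome and the constitutive beta subunit with the largest differences. They come from RefSeq (GRCh38.p14), run 5′ to 3′ on the strand of the gene and end before the transcription start, and bases that GENCODE 29 annotates as UTR are left out. In the order of the lines, the stretches are chr17:38752491-38752735 on the plus strand, chr6:32853979-32854160 on the plus strand, chr3:64023561-64023744 on the minus strand, chr12:121888540-121888730 on the plus strand and chr6:3258697-3258893 on the plus strand. Capitals mark matches, on either strand, to 4 motifs: the CCAAT box (CCAAT), the antioxidant response element core (TGACNNNGC), at which the factors NFE2L1 and NFE2L2 are known to act, the gamma-activated site (TTCNNNGAA) and the interferon response element core (GAAA, 2 bases of any kind, GAAA).
PSMB3: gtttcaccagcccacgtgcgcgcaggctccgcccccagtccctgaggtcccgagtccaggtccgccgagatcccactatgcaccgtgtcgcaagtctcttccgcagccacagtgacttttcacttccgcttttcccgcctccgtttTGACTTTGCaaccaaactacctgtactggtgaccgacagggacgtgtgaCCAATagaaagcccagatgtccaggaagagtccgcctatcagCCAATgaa
PSMB9: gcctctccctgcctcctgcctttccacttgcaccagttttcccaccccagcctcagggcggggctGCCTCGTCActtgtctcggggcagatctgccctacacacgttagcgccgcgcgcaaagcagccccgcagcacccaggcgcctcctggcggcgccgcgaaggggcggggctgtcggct
PSMD6: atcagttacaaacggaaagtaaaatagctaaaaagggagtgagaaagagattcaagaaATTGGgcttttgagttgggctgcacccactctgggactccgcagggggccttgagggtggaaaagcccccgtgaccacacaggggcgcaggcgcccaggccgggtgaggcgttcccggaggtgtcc
PSMD9: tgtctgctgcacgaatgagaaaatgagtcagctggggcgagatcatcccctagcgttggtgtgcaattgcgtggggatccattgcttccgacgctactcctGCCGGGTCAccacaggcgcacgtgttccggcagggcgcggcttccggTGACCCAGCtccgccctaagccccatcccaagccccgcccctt
PSMG4: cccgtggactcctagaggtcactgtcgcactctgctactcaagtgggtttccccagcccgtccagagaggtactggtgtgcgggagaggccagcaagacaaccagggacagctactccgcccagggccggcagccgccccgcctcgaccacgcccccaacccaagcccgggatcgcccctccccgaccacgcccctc
The printed stretch of PSMB3 holds 2 CCAAT boxes and 1 antioxidant response element core, PSMB9 holds 1 such core, PSMD9 holds 2, PSMD6 holds 1 CCAAT box and the stretch of PSMG4 holds no match. Over the full 250 bases before the start, 40 of the 46 members had a RefSeq entry. PSMB1, which also did not overlap between the groups, had none and is therefore not printed. The antioxidant response element core was present in 11 of 40 members (27.5%) and in 11% of all 27305 promoters. The interferon response element core was present in 5 members (12.5%), against 3.07% of all promoters, and those were PSMA4, PSMB4, PSMB10, PSME2 and PSMG4. The CCAAT box was found in 17 members (42.5%), against 33% of all, and the gamma-activated site in 4 (10%), against 6.78% of all. PSMG4 and PSMB9 have further matches, an interferon response element core and a CCAAT box, in bases that are not printed. No matches of different motifs overlapped in the members. A match is a run of letters and not a shown binding site.

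None of the 46 members passed limma's adjusted threshold of 0.05 between APRIL and control (smallest adjusted p = 0.3999), as for all 11257 genes tested, of which 0% were called. At an unadjusted p under 0.05 there were 6 members, all higher with APRIL, against 11.9% of all genes (6.25% higher and 5.69% lower). The 6 were PSMA7, PSMB1, PSMD8, PSMD9, PSMG3 and PSMG4. The APRIL and control values did not overlap for 4 members, PSMB1, PSMD6, PSMD9 and PSMG4, all higher with APRIL, against 7.81% of all genes without overlap (3.62% higher and 4.19% lower). The difference was positive for 36 members and negative for 10, where 49.3% of all genes were positive, and the median was +0.24 over the members and -0.0053 over all genes. Without APRIL column 3 the median of the members was +0.070, with 30 positive, where 49.8% of all genes were positive, and 7 members had an unadjusted p under 0.05, where 9.28% of all genes did. By the p-value of the authors' deposited table, 3 members were under 0.05, PSMD6, PSMD9 and PSMG4, where 8.52% of all genes were.

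**Figure D1:**
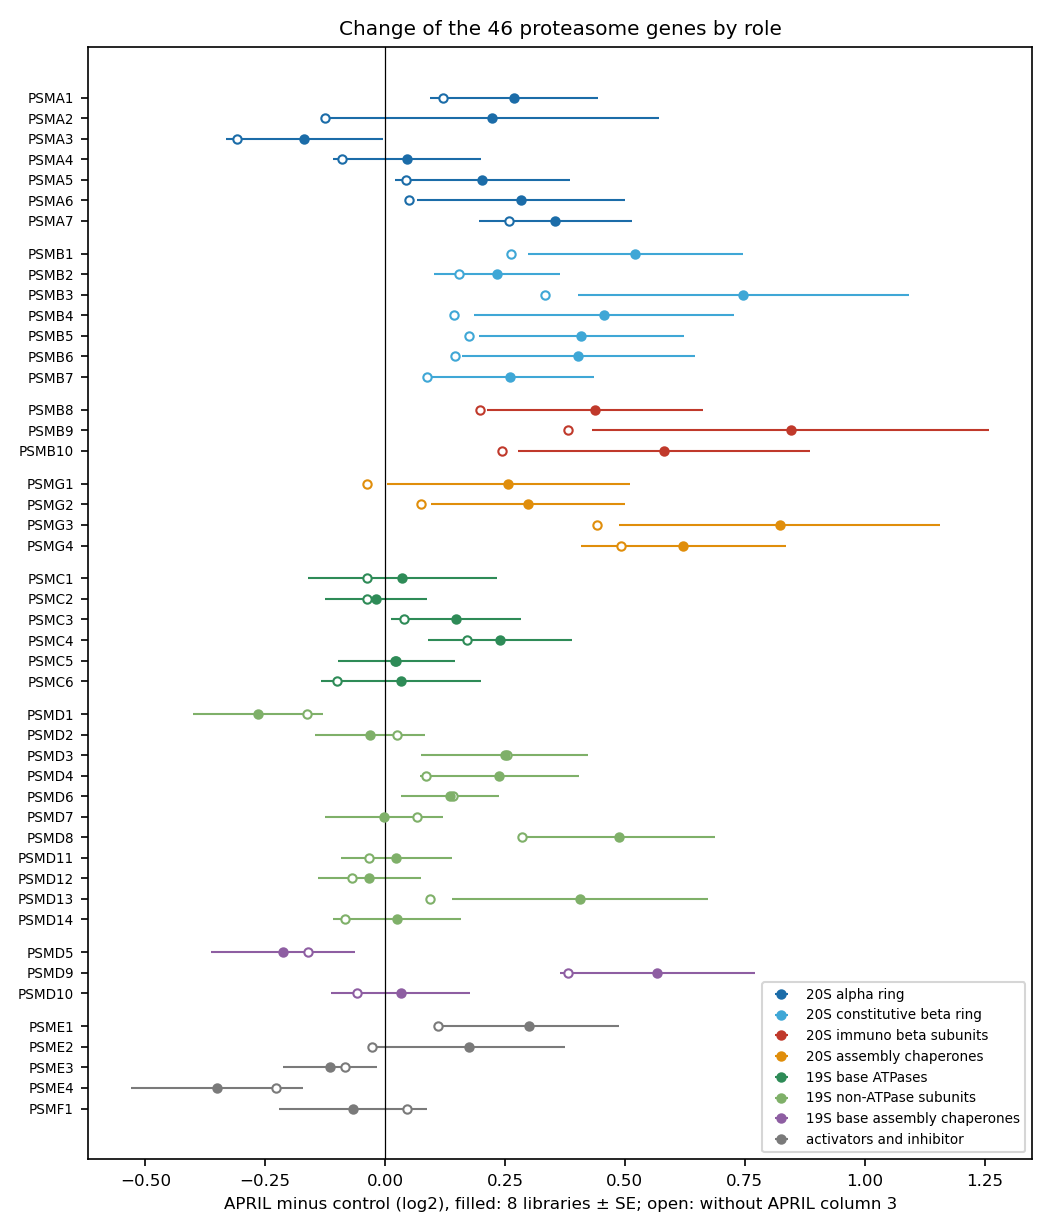
Difference between APRIL and control (log2, x axis) for each of the 46 proteasome genes, grouped by role; filled points are the 8-library value with its standard error and open points are the value without APRIL column 3. The 20S core subunits and their chaperones lie mostly right of 0, up to +0.85 for PSMB9, the 19S subunits lie around 0, and most filled points move toward 0 when APRIL column 3 is left out.

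The outer ring of the core had a positive difference in 6 of 7 alpha subunits, with a median of +0.22 and +0.044 without APRIL column 3. PSMA7 had the largest difference of the ring. Its levels were 11.21, 11.05, 11.56 and 11.26 in APRIL columns 1 to 4, against 10.54, 11.10, 10.89 and 11.13 in control columns 1 to 4, a difference of +0.36 ± 0.16 (SE). The highest library was APRIL column 3 and the lowest control column 1, and the groups overlapped. PSMA7 was at +0.23 without control column 1, and at +0.073 with each library's trends with transcript length and GC content removed. PSMA3 was the one alpha gene with a negative difference. It stood at 7.40, 7.27, 7.87 and 7.25 with APRIL and at 7.87, 7.47, 7.58 and 7.55 in control, a difference of -0.17 ± 0.16. APRIL column 3 here stood level with the highest control, while the other 3 APRIL libraries lay below every control. Without that library PSMA3 was at -0.31, and with the trends removed it was at -0.32. PSMA1, PSMA2, PSMA4, PSMA5 and PSMA6 ranged from +0.045 to +0.28. PSMA2 rested on 17 to 79 reads per library, and PSMA2 and PSMA6 have 3 and 4 annotated pseudogene copies that could share reads with them.

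The inner ring had a positive difference in 7 of 7 constitutive beta subunits (median +0.41, and +0.16 without APRIL column 3). APRIL column 3 was the highest of the 8 libraries for each of them. PSMB1, a structural subunit, was at 10.33, 10.13, 11.28 and 10.28 with APRIL and at 10.07, 9.90, 9.94 and 10.02 in control, a difference of +0.52 ± 0.22. The lowest APRIL library, column 2, lay just above the highest control, column 1. With the trends removed the difference was +0.30, and without APRIL column 3 it was +0.26. PSMB3, also structural, had the largest difference of the ring at +0.75 ± 0.35. Its levels were 5.27, 4.91, 6.79 and 5.22 with APRIL and 4.65, 4.81, 4.82 and 4.92 in control. APRIL column 2 lay just below the highest control, and the other APRIL libraries lay above it. Dropping APRIL column 3 brought PSMB3 to +0.33, and removing the trends to +0.42. PSMB2 had the smallest difference, +0.23 ± 0.13, at 6.16, 6.21, 6.52 and 6.26 with APRIL and 5.89, 6.07, 6.18 and 6.09 in control. Only APRIL column 1 fell within the control range. PSMB2 was at +0.28 with the trends removed and at +0.16 without APRIL column 3. PSMB4 was at +0.46 ± 0.27, or +0.14 without APRIL column 3.

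The 3 catalytic genes of the constitutive core are PSMB5 for the chymotrypsin-like site, PSMB6 for the caspase-like site and PSMB7 for the trypsin-like site. PSMB5 stood at 9.19, 8.97, 10.06 and 9.24 with APRIL and at 8.80, 9.01, 8.90 and 9.11 in control, a difference of +0.41 ± 0.21. PSMB6 stood at 2.90, 2.80, 3.94 and 3.04 with APRIL and at 2.65, 2.84, 2.72 and 2.84 in control, a difference of +0.40 ± 0.24. PSMB7 stood at 6.15, 6.00, 6.80 and 6.18 with APRIL and at 6.00, 5.91, 6.06 and 6.12 in control, a difference of +0.26 ± 0.18. In all 3 genes APRIL columns 3, 4 and 1 lay above the controls and APRIL column 2 lay within them. Without APRIL column 3 PSMB5, PSMB6 and PSMB7 were at +0.18, +0.15 and +0.086, and with the trends removed at +0.20, +0.061 and +0.027.

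As deposited, their immunoproteasome counterparts had larger differences, with a median of +0.58 over the 3 genes, or +0.24 without APRIL column 3. This order did not hold for every pair with the trends removed, where PSMB8 was at +0.15 and PSMB5 at +0.20. With APRIL column 3 left out as well, PSMB8 and PSMB10 were at +0.045 and -0.0078, below PSMB5 at +0.088 and PSMB7 at +0.011. PSMB9 stayed above PSMB6 in both settings. PSMB8, the counterpart of PSMB5, was at 5.84, 5.78, 6.87 and 6.11 with APRIL and at 5.59, 5.64, 5.83 and 5.79 in control, a difference of +0.44 ± 0.23. PSMB9, the counterpart of PSMB6, was at 2.44, 2.15, 4.19 and 2.42 with APRIL and at 1.59, 1.68, 2.37 and 2.19 in control, a difference of +0.85 ± 0.41. PSMB10, the counterpart of PSMB7, was at 5.24, 5.09, 6.65 and 5.58 with APRIL and at 4.76, 5.10, 5.12 and 5.24 in control, a difference of +0.58 ± 0.30. The groups overlapped in each gene, and APRIL column 3 stood apart above the other 7 libraries. PSMB9 had the largest difference of the 46 members, with 29 to 159 reads per library, and was at +0.47 with the trends removed and +0.38 without APRIL column 3. PSMB8 and PSMB10 were at +0.15 and +0.19 with the trends removed, and at +0.20 and +0.24 without APRIL column 3. PSMB8 and PSMB9 are neighbours on chromosome 6 with exons that overlap on opposite strands in GENCODE 29. The library kit does not mark strand, so reads in the overlap cannot be told apart.

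Each immunoproteasome subunit was also set against its constitutive partner within each library. PSMB8 minus PSMB5, as a deviation from the 8-library mean, was -0.12, 0.043, 0.036 and 0.10 with APRIL and 0.013, -0.14, 0.16 and -0.091 in control. Its group means differed by +0.029, less than the spread between libraries (SD 0.097 with APRIL and 0.14 in control). Without APRIL column 3 the difference of this pair was +0.022, and with the trends removed it was -0.052. PSMB9 minus PSMB6 was 0.13, -0.061, 0.84 and -0.029 with APRIL and -0.48, -0.57, 0.23 and -0.069 in control, a difference of +0.44. PSMB10 minus PSMB7 was -0.11, -0.10, 0.65 and 0.20 with APRIL and -0.43, -0.0036, -0.13 and -0.075 in control, a difference of +0.32. In both of these APRIL column 3 was the highest library and the groups overlapped. Without it their differences were +0.24 and +0.16, and with the trends removed +0.40 and +0.17.

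The 4 chaperones of core assembly had a positive difference in each gene (median +0.46, and +0.26 without APRIL column 3). PSMG1 and PSMG2 form a dimer that places alpha subunits in the ring, and PSMG3 and PSMG4 form a further dimer that acts at the same stage. PSMG4 was at 3.46, 3.33, 4.03 and 3.72 with APRIL and at 2.55, 3.05, 3.13 and 3.33 in control, a difference of +0.62 ± 0.21, which was +0.29 with the trends removed and +0.49 without APRIL column 3. The groups did not overlap, although APRIL column 2 and control column 4 nearly met. PSMG3 was at 7.91, 7.62, 9.35 and 7.94 with APRIL and at 7.06, 7.42, 7.30 and 7.76 in control, a difference of +0.82 ± 0.34. Its groups overlapped through APRIL column 2, which lay below control column 4. PSMG3 was at +0.44 without APRIL column 3 and at +0.49 with the trends removed. PSMG1 had the smallest difference, +0.26 ± 0.25, at 9.51, 9.38, 10.72 and 9.74 with APRIL and 9.61, 9.53, 9.66 and 9.54 in control. APRIL column 3 and column 4 lay above the controls and columns 1 and 2 lay below them, and without column 3 PSMG1 was at -0.037. PSMG2 was at +0.30 ± 0.20, or +0.074 without APRIL column 3. Exons of PSMG3 overlap those of PSMG3-AS1 on the other strand, which the table also lists. PSMG4 rests on 47 to 226 reads per library, and its exons overlap those of SLC22A23 and TUBB2B on the other strand.

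**Figure D2:**
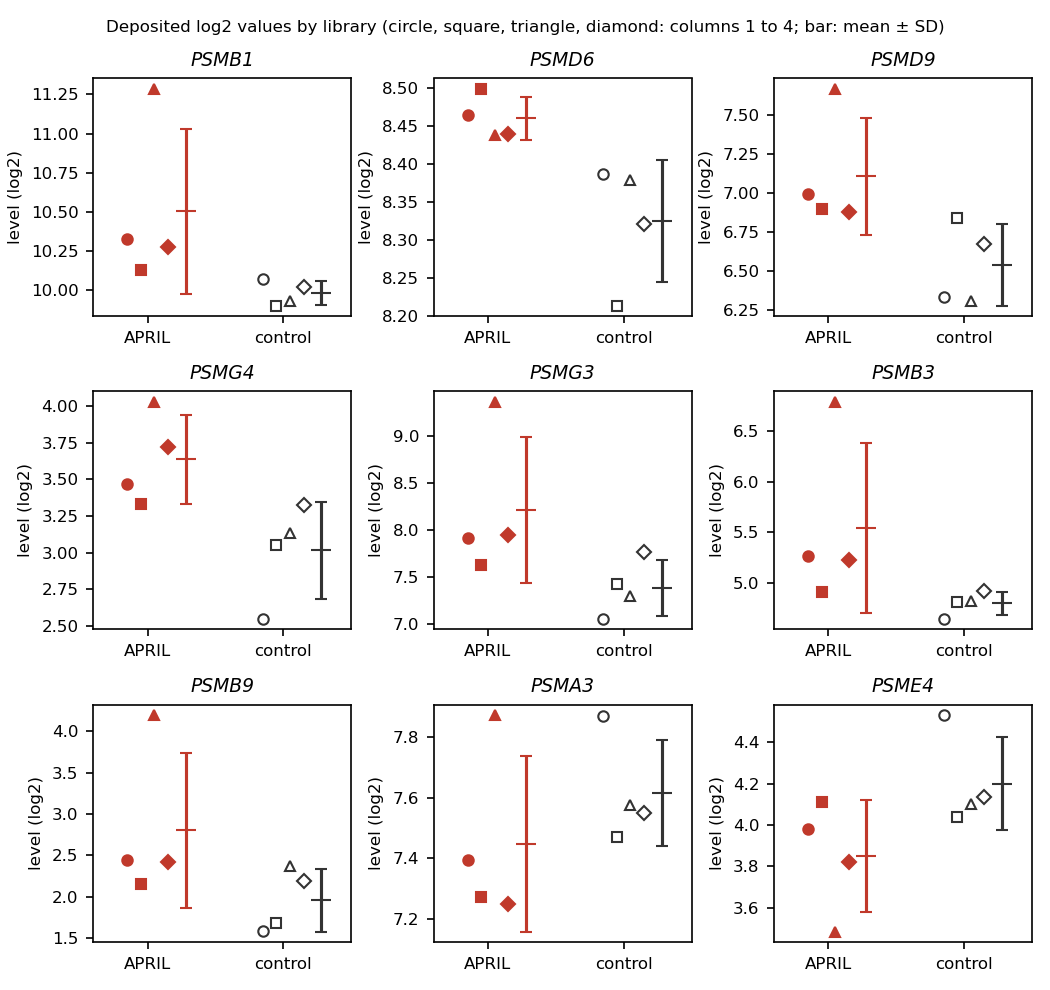
Deposited log2 level (y axis, a separate scale per gene) of 9 members in APRIL (left) and control (right) libraries, with the group mean and SD (n = 4) beside the points. PSMB1, PSMD6, PSMD9 and PSMG4 show no overlap, APRIL column 3 (triangle) is far above the other libraries in PSMB1, PSMB3, PSMB9 and PSMG3, and it is the lowest library in PSME4.

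The ATPases of the 19S base had a median difference of +0.035, with 5 of 6 genes positive, or -0.0084 without APRIL column 3, and none had an unadjusted p under 0.05. PSMC4 had the largest difference, +0.24 ± 0.15. Its levels were 5.37, 5.31, 5.63 and 5.36 with APRIL and 4.84, 5.23, 5.30 and 5.33 in control. Control column 1 was the lowest library, and control column 4 lay above APRIL column 2. PSMC4 was at +0.13 without control column 1 and at +0.014 with the trends removed. PSMC2 had the only negative difference of the ring, -0.020 ± 0.11, at 7.28, 7.23, 7.29 and 7.14 with APRIL and 7.30, 7.25, 7.18 and 7.28 in control. Its 8 libraries were close together, and its 95% interval ran from -0.26 to +0.22. PSMC1, PSMC3, PSMC5 and PSMC6 ranged from +0.024 to +0.15. PSMC1 has 13 annotated pseudogene copies, so its value is uncertain.

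The non-ATPase subunits of the 19S particle were divided, with 7 of 11 positive (median +0.025, and +0.066 without APRIL column 3). PSMD8, a lid subunit, had the largest difference, +0.49 ± 0.20. It was at 8.06, 7.79, 8.82 and 8.17 with APRIL and at 7.58, 7.73, 7.72 and 7.85 in control. APRIL column 2 fell within the control range, and PSMD8 was at +0.28 without APRIL column 3 and at +0.22 with the trends removed. PSMD6, also of the lid, was at 8.46, 8.50, 8.44 and 8.44 with APRIL and at 8.39, 8.21, 8.38 and 8.32 in control. This is the one member without overlap in which APRIL column 3 was not the highest APRIL library. Its difference was small at +0.13 ± 0.10, but larger than the SDs of 0.028 with APRIL and 0.080 in control (n = 4 each). It was +0.017 with the trends removed and +0.14 without APRIL column 3. PSMD6 overlaps antisense genes on the other strand. PSMD1, the large scaffold subunit of the base, had the most negative difference, -0.26 ± 0.14, at 7.34, 7.51, 6.97 and 7.29 with APRIL and 7.65, 7.52, 7.53 and 7.47 in control. The lowest library was APRIL column 3, and without it PSMD1 was at -0.16, or at -0.15 with the trends removed. PSMD13, another lid subunit, was at +0.41 ± 0.27 and at +0.093 without APRIL column 3. The ubiquitin receptor PSMD4 was at +0.24 ± 0.17 and the deubiquitinase PSMD14 at +0.025 ± 0.13, and PSMD2, PSMD3, PSMD7, PSMD11 and PSMD12 ranged from -0.033 to +0.25.

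The 3 chaperones that assemble the 19S base had differences of both signs, with a median of +0.032, or -0.058 without APRIL column 3. PSMD9 had the largest difference, +0.57 ± 0.20, at 6.99, 6.90, 7.66 and 6.87 with APRIL and 6.33, 6.84, 6.31 and 6.67 in control. The groups did not overlap, with APRIL column 4 just above control column 2. PSMD9 was at +0.38 with APRIL column 3 left out, at +0.55 with the trends removed and at +0.36 with both changes. These values rest on 32 to 140 reads per library, and exons of PSMD9 overlap those of WDR66 on the same strand. PSMD5 went the other way at -0.21 ± 0.15, at 6.78, 7.07, 6.68 and 6.81 with APRIL and 7.40, 6.89, 6.94 and 6.97 in control. Control column 1 was the highest library, and without it PSMD5 was at -0.097. With the trends removed it was at -0.064. PSMD10, known also as an oncoprotein in liver under the name gankyrin, was at +0.032 ± 0.15.

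The activators and the inhibitor had a median of -0.067, with 3 of 5 genes negative. The median was -0.027 without APRIL column 3. With voom it was +0.019 over the 4 genes with recovered reads, which leave out PSME3, so the 2 medians cover different genes. PSME1 and PSME2, the interferon-induced subunits of the activator that works with the immunoproteasome, were positive, and the others were negative. PSME1 was at 10.22, 9.99, 10.89 and 10.19 with APRIL and at 10.09, 9.80, 10.20 and 10.00 in control, a difference of +0.30 ± 0.19, and PSME2 was at +0.18 ± 0.20. Without APRIL column 3 they were at +0.11 and -0.027, and with the trends removed at +0.036 and -0.13. PSME1 overlaps EMC9, and PSME2 overlaps RNF31, on the other strand. PSME4, which encodes a large activator, had the most negative difference of all 46 members, -0.35 ± 0.18. It stood at 3.98, 4.11, 3.49 and 3.82 with APRIL and at 4.53, 4.04, 4.10 and 4.13 in control. The lowest library was APRIL column 3 and the highest control column 1, and PSME4 was at -0.23 without APRIL column 3 and at -0.084 with the trends removed. The nuclear activator PSME3 was at -0.12 ± 0.098 and the inhibitor PSMF1 at -0.067 ± 0.15. With the trends removed PSME3 was at -0.36, the most negative of the 46 members in that setting, and PSMF1 was at +0.073.

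**Figure D3:**
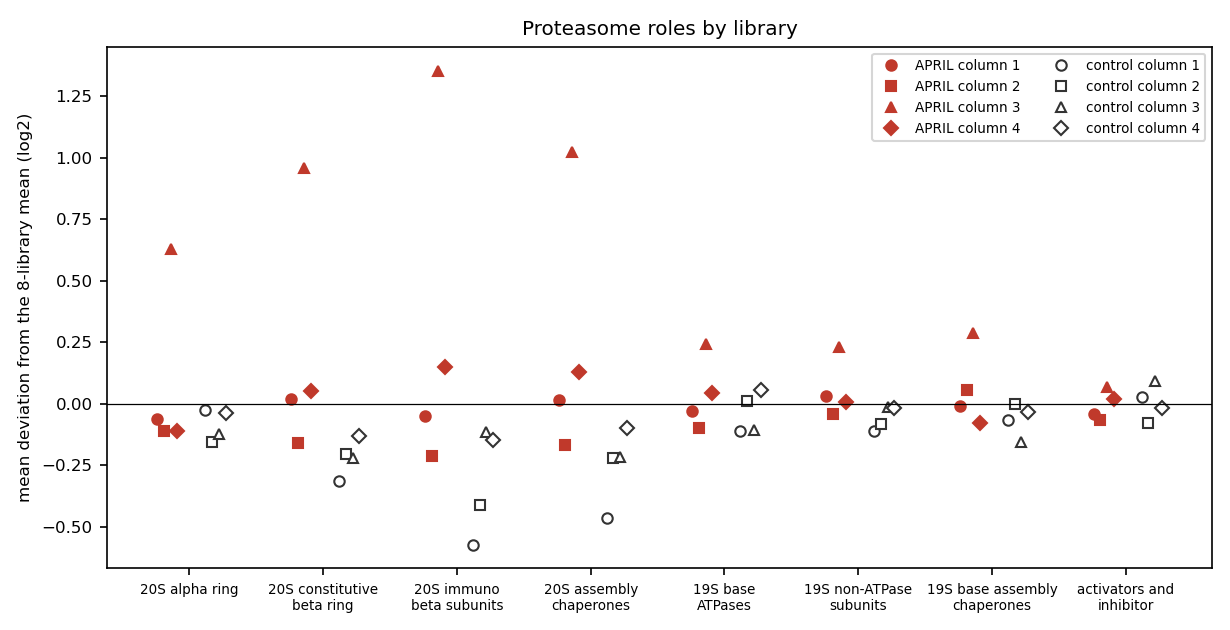
Mean deviation from the 8-library mean (log2, y axis) over the tested genes of each role, 1 point per library, APRIL left of control in each role. APRIL column 3 stands at +0.63 to +1.35 in the core subunits and core chaperones and at +0.069 to +0.29 in the other roles, and the remaining libraries lie between -0.57 and +0.15.

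By library, the mean deviation of the 46 members was -0.0097, -0.096, +0.53 and +0.016 in APRIL columns 1 to 4, against -0.17, -0.13, -0.095 and -0.045 in control columns 1 to 4. APRIL column 3 was the highest of the 8 libraries for 34 of the 46 members, where it was the highest for 33.6% of all genes, and the lowest for 7, where it was the lowest for 32.9% of all genes. It was the highest for each of the 14 constitutive core subunits, for the 3 immunoproteasome subunits and for the 4 core chaperones, and for 9 of the 17 subunits of the 19S particle. After removal of the group means, the median correlation over the 91 pairs of constitutive core subunits was 0.82 in 8 libraries and 0.24 without APRIL column 3. Over the 55 pairs of 19S non-ATPase subunits it was -0.017 and 0.099. These are descriptions, and all pairs share the same libraries and their depth.

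Transcript length and GC content moved with the difference. Members with a transcript under the median of 1566 bases (773 to 1553 bases) had a positive difference in 21 of 23 genes with a median of +0.36, and the longer members (1579 to 7099 bases) in 15 of 23 with a median of +0.033. Across the 46 members Spearman's rho of the difference was -0.62 with length and 0.62 with GC content, and across 10359 genes it was -0.55 and 0.52. Genes are not independent replicates, and members share libraries. After each library's trends with length and GC content were removed, the median difference of the members was +0.12, with 34 of 46 positive, where the median of all genes was -0.0078 and 48.3% were positive. By role the medians were then +0.17 for the alpha ring, +0.20 for the constitutive beta ring, +0.19 for the immunoproteasome subunits and +0.26 for the core chaperones. For the 19S ATPases, the non-ATPase subunits, the base chaperones and the activators with the inhibitor they were +0.053, +0.017, -0.027 and -0.084. With the trends removed and APRIL column 3 left out as well, the median of the members was +0.036. In the fit with the trends removed 4 members had an unadjusted p under 0.05, where 7.64% of all genes did, and 0 passed the adjusted threshold.

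**Figure D4:**
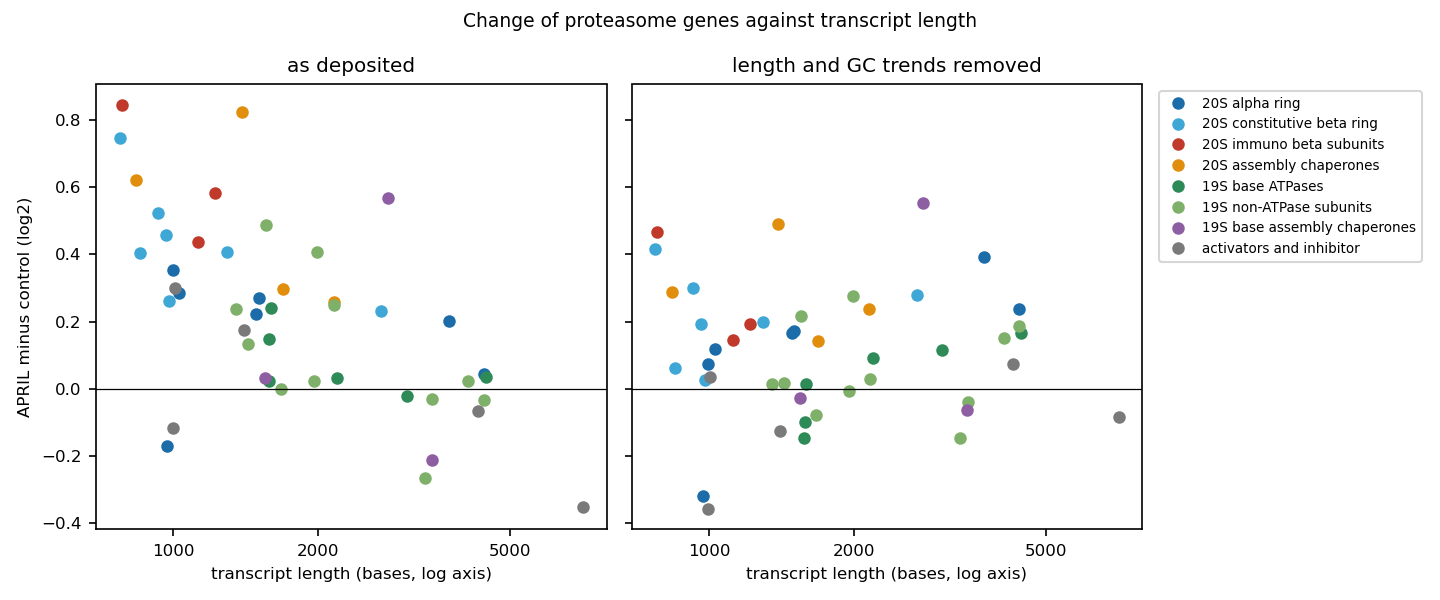
Difference between APRIL and control (log2, y axis) of the 46 members against the length of their transcript (bases, log axis), coloured by role, as deposited (left) and with each library's trends with length and GC content removed (right). On the left the shortest genes reach +0.85 and the longest, PSME4, lies at -0.35; on the right the range is -0.36 to +0.55 and the slope with length is small.

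Of 14 tested genes that encode partners of the proteasome under other symbols, 7 had a positive and 7 a negative difference (median -0.0058), and none had an unadjusted p under 0.05. The transcripts of the 12 partners with a known length had a median of 4957.5 bases, against 1012.5 for the 14 constitutive core subunits. Without APRIL column 3 the median was -0.046 for the 14 partners and +0.13 for the core subunits. With the trends removed it was +0.043 for the 12 partners with a known length and +0.18 for the core subunits. With both changes, a setting chosen after seeing the data, these medians were +0.076 and +0.066. The difference between these lists was not tested. POMP, the maturation factor that joins the core during assembly with the PSMG proteins, was at -0.030 ± 0.17. ADRM1, a ubiquitin receptor of the 19S particle, was at +0.37 ± 0.17, but at -0.074 with the trends removed. KIAA0368, which encodes a protein that tethers the 19S particle to the core, lay wholly below control at 5.48, 5.59, 4.74 and 5.39 with APRIL and 5.82, 5.82, 5.61 and 5.61 in control (-0.42 ± 0.19). APRIL column 2 lay just below control column 4, and without APRIL column 3 KIAA0368 was at -0.23. No transcript length was matched to KIAA0368, so it has no value with the trends removed.

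The regulators of proteasome gene transcription had a negative difference in 8 of 9 tested genes (median -0.11, and -0.066 with the trends removed). Some of these were well within their SE: MAFG at -0.028 ± 0.13, BTRC at -0.036 ± 0.16 and SYVN1 at -0.041 ± 0.20. The positive gene was MAFK at +0.17 ± 0.24. Of all genes 49.3% had a positive difference. Without APRIL column 3 the median of the 9 genes was -0.086, and 3 of them were positive. NFE2L1, the factor that raises proteasome gene transcription when the complex is inhibited, was at -0.23 ± 0.15, at -0.086 without APRIL column 3 and at -0.19 with the trends removed. NFE2L2, its relative in the oxidative stress response, was at 7.89, 7.87, 7.69 and 7.66 with APRIL and at 8.31, 7.99, 8.04 and 8.11 in control. All APRIL libraries lay below all controls, a difference of -0.33 ± 0.12, which was -0.26 with the trends removed and -0.30 without APRIL column 3 (adjusted p = 0.3999 in limma). DDI2, the protease that activates NFE2L1, was at -0.33 ± 0.19, and at -0.033 with the trends removed.

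Partners of the immunoproteasome in antigen display, induced by interferon, had a positive difference in 9 of 14 tested genes (median +0.049). HLA-B was at 9.32, 9.17, 9.73 and 9.29 with APRIL and at 8.75, 9.07, 9.02 and 9.16 in control (+0.38 ± 0.15), with APRIL column 2 just above control column 4. IRF1, a transcription factor of interferon responses, was at 3.85, 3.84, 4.35 and 3.96 with APRIL and at 3.75, 3.24, 3.65 and 3.66 in control (+0.42 ± 0.17), also without overlap. TAP1, a subunit of the peptide transporter, was at +0.27 ± 0.14. Without APRIL column 3 HLA-B was at +0.26 and IRF1 at +0.31. With the trends removed HLA-B was at +0.064, TAP1 at +0.16 and IRF1 at +0.45. None of these genes passed limma's adjusted threshold.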

How the data were processed

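Per the file headers, the authors deposited 1 table with a log2 value per gene and library, TMM-scaled (a library factor from trimmed means), beside a p-value and a fold for the comparison of the groups. Per the submitters' processing notes, TopHat2 2.0.13, bcl2fastq and the hg19 build were used. Neither read counter nor annotation nor gene filter is given in the sources used here. Per the labels' protocols, libraries were made with TruSeq RNA v2 reagents, a poly(A) protocol without strand information.

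The members and gene lists were chosen with earlier results of these data known. The test was limma 3.58.1 (R 4.3.3) in its trend and robust modes, fitted to the deposited log2 values of the 8 libraries with no covariate. Two-sided p-values were adjusted by Benjamini-Hochberg over all 11257 genes whose log2 value reached 0 in 4 libraries or more, which left out 273 genes. All 46 members passed this floor. A value of ± is the standard error from limma unless called SD. Lists are described by counts and medians without a test.

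Reads were recovered by searching, gene by gene, for a whole divisor that turned all 8 values into whole reads after a pseudocount of 0.5 reads and an offset for each library. This held for 96.7% of genes, and for 0 of 500 genes with the offsets moved. Transcript length and GC content came from the APPRIS principal transcript in GENCODE 29, else the longest, matched by symbol for 10359 tested genes, and each library's trend was removed with natural splines of 4 degrees of freedom. Values in every library are given for members without overlap or at an unadjusted p under 0.05, for the largest and smallest difference of each role and for the catalytic pairs. Some genes that this rule or the lists hold are not reported here. The fit was tested on simulated data. Python 3.11.15, numpy 2.4.6, scipy 1.17.1, pandas 2.3.3 and matplotlib 3.10.9 were used.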

Additional observations from a re-analysis of the deposited data

Results flagged for a closer look

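Samples far from the others of their group were looked for in 74 groups of 4 libraries, of which 4 stood out by Dixon's ratio, the gap to the nearest library over the range of the group (above the 95% critical value). Chance gives about 1 in 20. APRIL column 3 stood out as the highest APRIL library in PSMB9 (ratio 0.858), in PSMD9 (0.851) and in the mean deviation of the 20S alpha ring (0.93). Control column 1 stood out as the highest control in PSMD5 (0.83). APRIL column 3 was the shallowest library, and its part in these values was not tested beyond leaving it out. Limma's quality weights were 0.117 for APRIL column 3 and 0.316 for control column 1, the lowest of the 8, and 5.46 for APRIL column 1.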

How the results depend on the processing

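Under 16 alternatives 0 members passed limma's adjusted threshold in any. Over all genes 0 passed in 15 of them and 4 with library quality weights. The median of the members was positive throughout. It was +0.070 to +0.28 when each library was left out, +0.065 with quality weights and +0.050 without APRIL column 3 and control column 1. With voom it was +0.18 over the 42 members with recovered reads, and with libraries aligned on their medians it was +0.23. It was +0.12 with the trends removed and +0.036 with the trends removed and APRIL column 3 left out. The number of members at an unadjusted p under 0.05 is given beside that of all 11257 genes. Without control column 1 there were 1 member and 507 genes. There were 1 and 813 without control column 3, 3 and 1056 without control column 2, 7 and 1045 without APRIL column 3, and 14 and 2247 without APRIL column 2. Of the 46 members 25 kept their sign in every alternative that gave a value and 21 did not. Of the 28 genes chosen by the naming rule, 23 kept it. PSMC2 turned to +0.0062 with quality weights and +0.12 with the trends removed, and ranged from -0.045 to +0.011 when each library was left out. PSMG1 turned to -0.037 with quality weights and -0.028 without APRIL column 3 and control column 1, with a range of -0.037 to +0.41 when each was left out. With the trends removed and APRIL column 3 left out, chosen after seeing the data, PSMB6 was at -0.031, PSMB10 at -0.0078, PSME1 at -0.00035, PSMG1 at -0.010 and PSMC2 at +0.10. The cause was not tested. No paired analysis was possible because the table columns carry no replicate numbers. The median 95% half-width of a member's difference was 0.39, so a typical member's difference under this size could not be told from 0 even before adjustment.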

Other observations

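The ubiquitin genes and the factors that carry or extract ubiquitin-marked proteins were also examined. Of 16 tested genes 8 had a positive and 8 a negative difference (median +0.0090). UBA6, a ubiquitin-activating enzyme, had levels of 3.14, 3.39, 2.73 and 3.22 in APRIL columns 1 to 4, against 3.92, 3.24, 3.62 and 3.65 in control columns 1 to 4 (-0.49 ± 0.20, and -0.16 once the length and GC trends of each library were taken out). APRIL column 2 fell within the control range. The main activating enzyme UBA1 was at +0.10 ± 0.12, the polyubiquitin gene UBB at -0.031 ± 0.23, and the segregase VCP at +0.049 ± 0.093. None of these passed limma's adjusted threshold.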
